A study of Mus musculus with 9 samples.

Results

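Genes of 6 amino acid transporter families were followed in 3T3-L1 pre-adipocytes, mouse fibroblasts that turn into fat cells when induced. They were taken by symbol, as all numbered members of the solute carrier families Slc1, Slc3, Slc7, Slc36, Slc38 and Slc43 that the platform annotation gives on probe sets with 1 symbol, each through its brightest probe set over the 9 arrays. The rule found 42 of 22180 genes: 7 of family Slc1, 2 of Slc3, 15 of Slc7, 4 of Slc36, 11 of Slc38 and 3 of Slc43. To be tested, a gene needed at least 3 arrays at or above the table's median, 6.51 on the log2 scale, which 28 of these genes and 12630 genes in all had. The 9 single-colour arrays fall into 3 groups of 3. Cells of the first group had been transfected with an siRNA against CD24, a small surface glycoprotein, and cells of the second with a scrambled siRNA. Both then received 0.5 mM IBMX, which blocks phosphodiesterases and so raises cAMP, and 1 µM of the synthetic glucocorticoid dexamethasone (Dex) for 6 h. The third group was given vehicle. All cells had been kept for 48 h past confluence, after growth in high-glucose medium with glutamine and pyruvate. Whether vehicle cells were transfected is not in the labels, so transfection and IBMX/Dex cannot be told apart in any comparison with vehicle. Separate cultures are not stated for the replicates either, and the p-values then cover only the spread among these arrays, which may be technical.

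Amino acids cross membranes through carriers that differ in substrate, in driving ion and in location. Slc1 carriers move glutamate or small neutral amino acids with sodium. Slc7 carriers move cationic or large neutral amino acids, and most of the exchangers among them work as a light chain bound to one of the Slc3 heavy chains. Slc38 carriers bring in glutamine, alanine and other small neutral amino acids with sodium, Slc36 carriers move small amino acids with protons, and Slc43 holds facilitators of large neutral amino acids. Some members sit in the lysosome and pass amino acids back to the cytosol, where the mTORC1 kinase complex reads the supply. When amino acids run short, the kinase Gcn2 raises the factor ATF4, which is known to drive several of these carriers.

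Arrays of 1 group correlated with r of 0.963 to 0.990 over probe sets, which are not independent replicates, and the number of arrays limits the precision. Of 12 markers of the labelled cell type that were named here, 11 passed the filter. Vim, Fn1 and Dlk1 averaged at least 12.2 log2 units in each group, whereas 4 of 7 mature adipocyte markers (Adipoq, Plin1, Cidec and Lep), 3 of 7 of leukocytes, 5 of 6 of endothelium and 3 of 5 of epithelium lay below the filter. The others passed it, among them Fabp4 and Lpl of adipocytes at 9.52 and 11.06 log2 units with vehicle, and Cd68, Lyz2 and Cd14 of leukocytes at 8.03, 8.02 and 8.34, while Retn, Cdh5, Krt8 and Krt14 lay at 6.54 to 6.71. Of skeletal muscle markers 4 of 6 passed the filter (Myod1, Myog, Des and Tnnt2), and of neuron and astrocyte markers 2 of 6 (Tubb3 and Rbfox3). Cd24a, the target of the siRNA, checks the labels. Its brighter probe set differed from the same-numbered scrambled arrays by -1.04, -1.57 and -0.10 log2 units on CD24 siRNA arrays 1, 2 and 3, and the other by -2.05, -2.03 and -0.18. The target was thus hardly lower on the array labelled CD24 siRNA replicate 3, which goes against that label, and differences and counts of that group are also given without this array. Arrays of the same replicate number deviated together, so counts and calls that change in a fit with the number as a block are given in both fits.

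Promoters are shown for 4 genes, from 250 bases before to 50 after the RefSeq start on mouse build GRCm38.p6. Slc36a1 (chr11:55204090-55204389, plus strand), Slc38a7 (chr8:95853442-95853741, minus strand) and Slc7a6 (chr8:106168604-106168903, plus strand) are shown because these genes moved against vehicle. Slc7a11 (chr3:50443564-50443863, minus strand) is shown because it carries the amino acid response motif in duplicate and had the lowest difference between the siRNA groups. Capitals mark matches to any of the motifs named after the sequences.
Slc36a1: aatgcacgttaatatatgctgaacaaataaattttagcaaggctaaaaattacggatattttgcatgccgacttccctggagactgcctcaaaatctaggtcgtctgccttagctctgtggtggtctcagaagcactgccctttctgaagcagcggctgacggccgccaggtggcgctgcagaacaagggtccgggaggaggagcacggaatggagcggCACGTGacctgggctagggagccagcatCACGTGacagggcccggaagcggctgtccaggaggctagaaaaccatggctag
Slc38a7: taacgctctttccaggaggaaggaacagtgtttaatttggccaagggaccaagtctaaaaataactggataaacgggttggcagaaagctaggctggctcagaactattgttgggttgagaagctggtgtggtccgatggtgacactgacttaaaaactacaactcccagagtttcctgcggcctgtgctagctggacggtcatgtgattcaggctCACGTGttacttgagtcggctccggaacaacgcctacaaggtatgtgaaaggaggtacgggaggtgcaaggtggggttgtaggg
Slc7a6: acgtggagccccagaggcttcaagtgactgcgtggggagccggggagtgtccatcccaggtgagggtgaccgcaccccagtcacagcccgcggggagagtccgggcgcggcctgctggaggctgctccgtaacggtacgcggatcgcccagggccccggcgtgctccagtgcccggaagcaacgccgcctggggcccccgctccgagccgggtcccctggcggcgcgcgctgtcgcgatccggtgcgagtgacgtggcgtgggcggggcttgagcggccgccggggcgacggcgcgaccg
Slc7a11: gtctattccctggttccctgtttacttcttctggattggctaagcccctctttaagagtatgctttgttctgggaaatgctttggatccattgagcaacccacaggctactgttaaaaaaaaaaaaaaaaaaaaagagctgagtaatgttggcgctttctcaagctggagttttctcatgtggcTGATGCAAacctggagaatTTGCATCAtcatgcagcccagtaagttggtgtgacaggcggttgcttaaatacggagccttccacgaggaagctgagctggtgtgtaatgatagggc
RefSeq promoters were matched for 31 of the 42 genes, with 42 promoters in all. Slc43a3, the gene with the largest difference from vehicle, was not among them, so no motif was searched for it. The C/EBP-ATF response element TGATGNAA, searched on both strands like every motif here, was in 3.97% of 32851 promoters and in 4 of the 42, those of Slc1a4, Slc7a11 and Slc7a7. In Slc7a11 the matches begin at -66 and -47 relative to the start. The cAMP response element TGACGTCA was in 1.79% of all promoters and in 1 of the 42, that of Slc38a6. The core of the glucocorticoid response element, ACANNNTGT, was in 6.85% of all promoters and in 3 of the 42, those of Slc1a2, Slc38a11 and Slc3a1. The E-box CACGTG was searched after these sequences had been read. It was in 7.15% of all promoters and in 7 of the 42, with matches at -31 and -3 relative to the start of Slc36a1 and at -34 in Slc38a7. The other 5 are those of Slc1a6, Slc1a7, Slc38a5, Slc43a1 and Slc7a14. The promoters of Ctns, a lysosomal carrier outside the 6 families that is described later, hold none of these motifs. A match is a run of letters in this window and was not tested for binding.

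The first comparison, scrambled siRNA with IBMX/Dex against vehicle, asks how the hormonal mixture that starts fat cell differentiation changes these genes. The facilitator gene Slc43a3 and the exchanger light chain gene Slc7a6 rose, and the lysosomal carrier genes Slc38a7 and Slc36a1 fell, all by less than 2-fold. That is 2 of 28 tested genes up and 2 down, where 3.33% of all tested genes passed as higher and 3.60% as lower (limma, Benjamini-Hochberg adjusted p under 0.05). With the replicate block 3 rose and 3 fell, where 11.9% of all genes passed as higher and 11.4% as lower. The second comparison, CD24 siRNA with IBMX/Dex against vehicle, uses the same vehicle arrays, so the lists of both comparisons are not independent. In it Slc43a3 rose, and Slc38a7 and Slc36a1 fell, against 2.92% of all genes higher and 3.73% lower. With the block 3 rose and 2 fell, against 10.4% and 12.1% of all genes. Without the array labelled CD24 siRNA replicate 3, Slc43a3 alone passed, where 1.29% of all genes passed as higher and 1.25% as lower. With the block 2 rose and 2 fell, against 7.28% and 6.68% of all genes. The median difference of the 28 genes was 0.10 log2 units with CD24 siRNA and 0.03 with scrambled siRNA, beside 0.02 for all genes tested in each case, and 0.13 beside 0.02 with CD24 siRNA when the array labelled CD24 siRNA replicate 3 was left out.

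**Figure D1:**
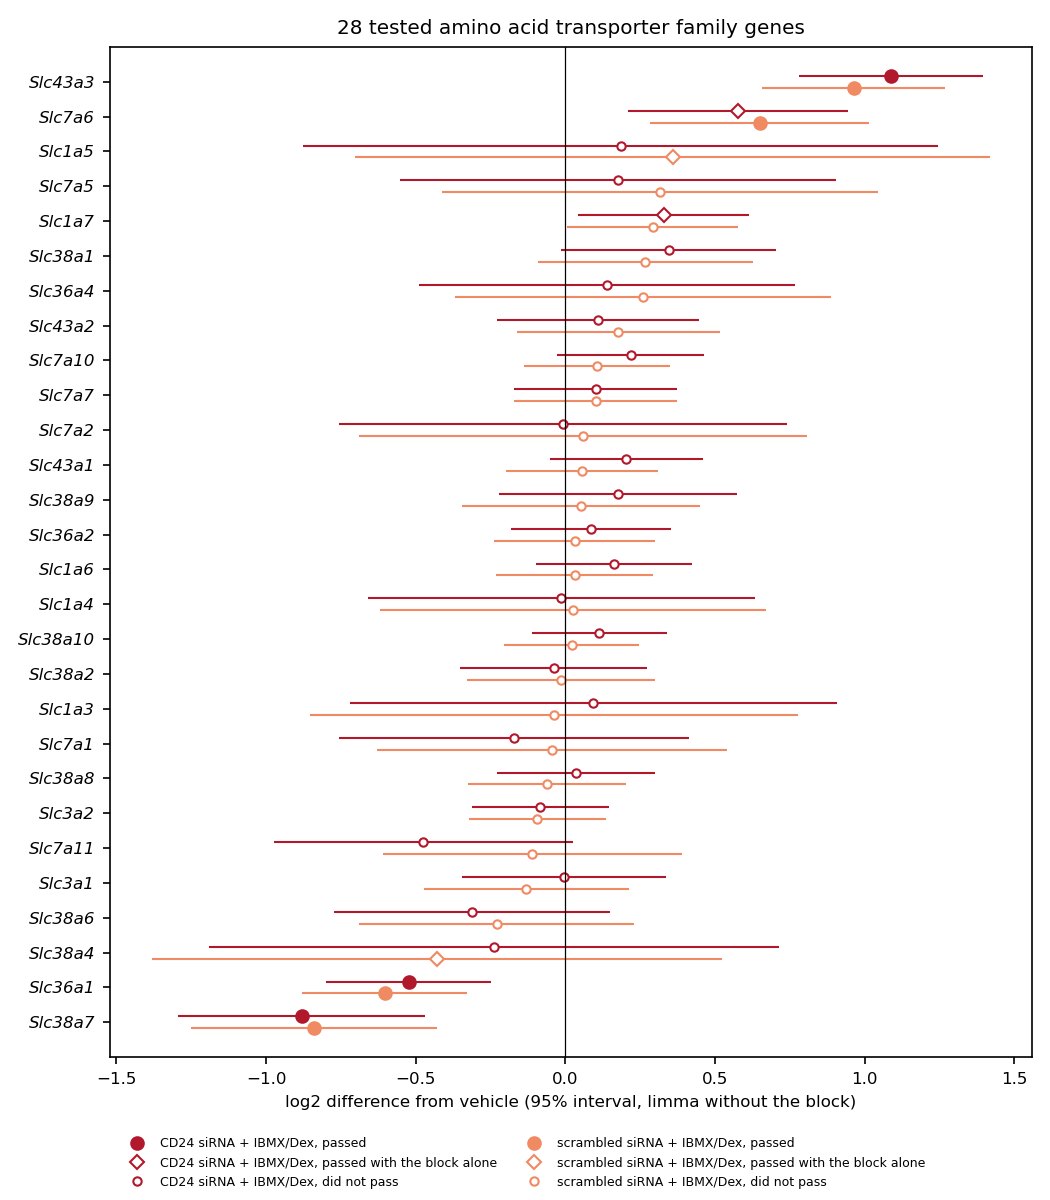
Log2 difference from vehicle of the 28 tested transporter genes for CD24 siRNA + IBMX/Dex (dark) and scrambled siRNA + IBMX/Dex (light), with 95% limma intervals from the fit without the replicate block. Filled circles passed an adjusted p of 0.05, diamonds passed with the block alone and small open circles did not pass. Slc43a3 lies near 1 at the top, Slc38a7 and Slc36a1 lie below 0 at the bottom, and most genes lie close to 0.

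Slc43a3 had the largest difference from vehicle of these genes. In humans its protein carries purine nucleobases, and it is grouped with the amino acid facilitators Slc43a1 and Slc43a2 by sequence. Its level was 12.36, 12.46 and 12.48 log2 units on CD24 siRNA arrays 1, 2 and 3, 12.08, 12.45 and 12.39 on scrambled siRNA arrays and 11.19, 11.55 and 11.29 on vehicle arrays. Every array with IBMX/Dex lay above every vehicle array. The difference from vehicle was 1.09 ± 0.14 (SE, 2.12-fold, adjusted p = 0.00298) with CD24 siRNA and 0.96 ± 0.14 (SE, 1.95-fold, adjusted p = 0.00506) with scrambled siRNA in limma. It passed under every alternative that was run, with adjusted p at most 0.0189 for CD24 siRNA, the value without the array labelled CD24 siRNA replicate 3 (difference 1.06), and at most 0.0285 for scrambled siRNA. Its family members Slc43a1 and Slc43a2, which carry large neutral amino acids such as leucine, did not pass. Slc43a1 differed from vehicle by 0.20 with CD24 siRNA and 0.06 with scrambled siRNA, and Slc43a2 by 0.11 and 0.18, in log2 units. The CD24 siRNA values were 0.22 and 0.20 once the array labelled CD24 siRNA replicate 3 was left out.

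Slc38a7 encodes the carrier that brings glutamine out of the lysosome. It stood at 9.86, 9.35 and 9.58 log2 units on CD24 siRNA arrays 1, 2 and 3, 9.81, 9.32 and 9.78 on scrambled siRNA arrays and 10.47, 10.29 and 10.67 on vehicle arrays. All 6 arrays with IBMX/Dex lay below the 3 vehicle arrays, and array 2 was the lowest in each group. The difference from vehicle was -0.88 ± 0.18 (SE, adjusted p = 0.0244) with CD24 siRNA and -0.84 ± 0.18 (SE, adjusted p = 0.0286) with scrambled siRNA in limma, falls of 1.84-fold and 1.79-fold. The call depended on single arrays in the fit without the block. For CD24 siRNA the adjusted p was 0.0508 without vehicle 1, 0.0814 without vehicle 3, 0.0875 without CD24 siRNA 2 and 0.0862 (difference -0.87) without the array labelled CD24 siRNA replicate 3. For scrambled siRNA it was 0.0548 and 0.0905 without vehicle 1 and 3, and 0.0824 and 0.0667 without scrambled 2 and 3. With the replicate block the gene passed in both comparisons whichever array was left out.

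Slc36a1 encodes a proton-coupled carrier that lets alanine, glycine and proline leave the lysosome. It stood at 9.23, 8.93 and 8.85 log2 units on CD24 siRNA arrays 1, 2 and 3, 9.04, 8.84 and 8.89 on scrambled siRNA arrays and 9.56, 9.47 and 9.55 on vehicle arrays. The vehicle arrays lay above all others, with an SD of 0.05. The difference from vehicle was -0.52 ± 0.12 (SE, adjusted p = 0.0374) with CD24 siRNA and -0.60 ± 0.12 (SE, adjusted p = 0.0220) with scrambled siRNA in limma, falls of 1.44-fold and 1.52-fold. For CD24 siRNA the call was lost when any one of 7 arrays was left out, with an adjusted p of 0.0567 and 0.0659 without scrambled 2 and 3, 0.0787, 0.0633 and 0.102 without vehicle 1, 2 and 3, 0.124 without CD24 siRNA 2 and 0.122 (difference -0.44) without the array labelled CD24 siRNA replicate 3. For scrambled siRNA it was 0.0756 and 0.0871 without scrambled 2 and 3 and 0.0649 without vehicle 3. With the replicate block it passed in both comparisons whichever array was left out. The other tested Slc36 genes did not pass. Slc36a4, a carrier of proline and tryptophan, differed by 0.14 with CD24 siRNA and 0.26 with scrambled siRNA, and Slc36a2, a glycine and proline carrier, by 0.09 and 0.03. When the array labelled CD24 siRNA replicate 3 was left out, the CD24 siRNA difference of Slc36a4 was 0.36 (0.15 with the block) and that of Slc36a2 was 0.04, and neither passed.

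The other lysosomal genes that were listed gave mixed values. Slc38a9, the lysosomal arginine sensor of mTORC1, differed from vehicle by 0.18 log2 units with CD24 siRNA and 0.05 with scrambled siRNA and did not pass. Ctns, which exports cystine from the lysosome, averaged 8.99 ± 0.08 with CD24 siRNA, 8.94 ± 0.12 with scrambled siRNA and 9.89 ± 0.40 with vehicle (SD, n = 3 each). It fell by 0.90 with CD24 siRNA (limma adjusted p = 0.0223, and 0.0835 without the array labelled CD24 siRNA replicate 3) and by 0.95 with scrambled siRNA (limma adjusted p = 0.0175). Slc15a4, Slc17a5 and Slc66a1, which carry histidine and peptides, sialic acid and cationic amino acids from the same compartment, differed from vehicle by -0.08 to 0.08 log2 units in both comparisons and did not pass, and by -0.10 to 0.12 with CD24 siRNA when the array labelled CD24 siRNA replicate 3 was left out, where Slc38a9 differed by 0.17. Of the factors that act on lysosomal genes, Tfeb lay below the filter, and Tfe3 differed by -0.35 with CD24 siRNA (adjusted p = 0.118, and 0.0479 with the replicate block in limma, which was 0.196 without the array labelled CD24 siRNA replicate 3) and by -0.32 with scrambled siRNA (adjusted p = 0.156, and 0.0701 with the block).

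**Figure D2:**
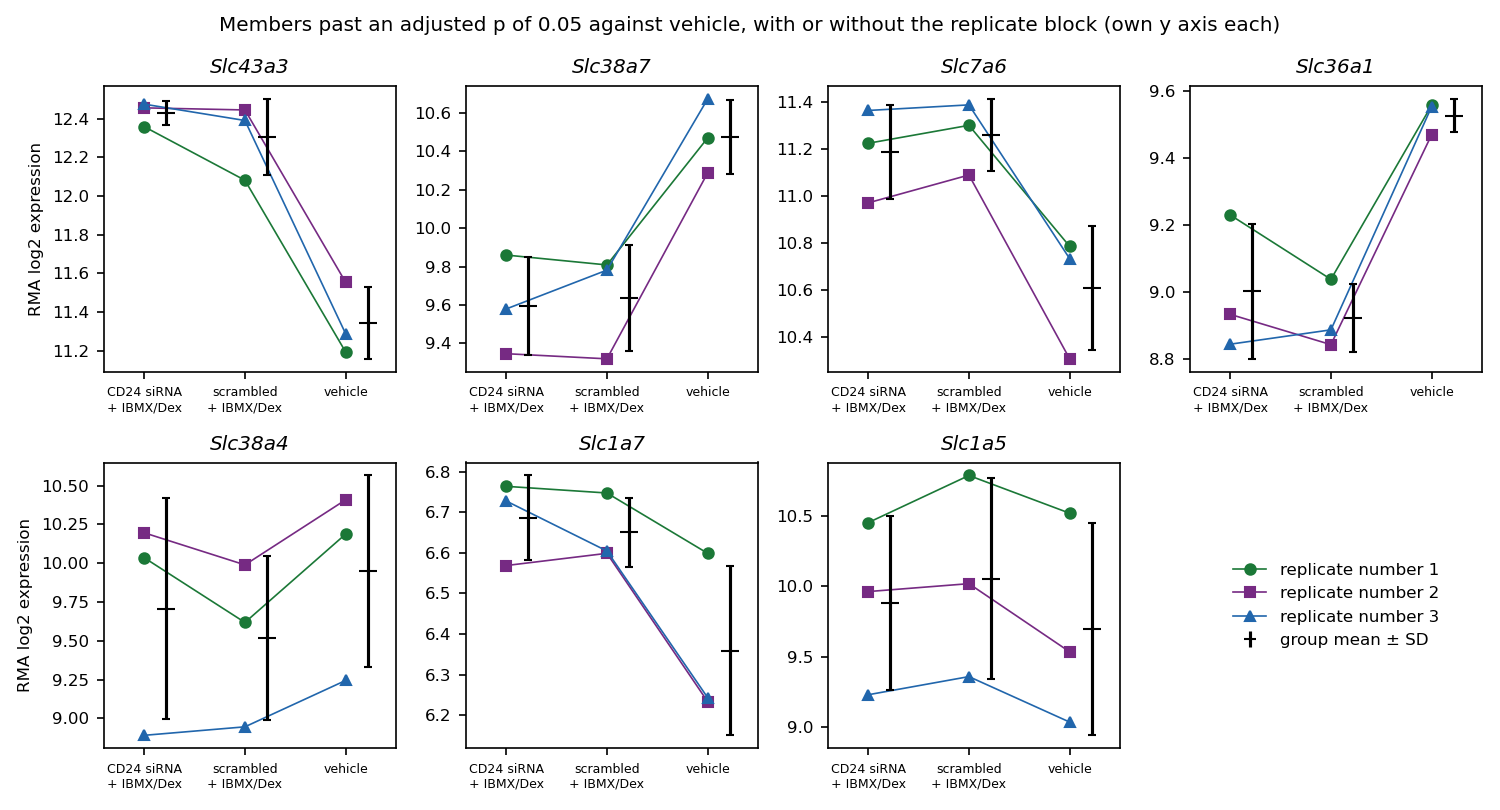
RMA log2 expression on each array of the 7 transporter genes that passed against vehicle with or without the replicate block, by group (CD24 siRNA + IBMX/Dex, scrambled siRNA + IBMX/Dex, vehicle). Lines join arrays of 1 replicate number, and black bars are the group mean ± SD of 3 arrays. Slc43a3 and Slc7a6 lie higher, and Slc38a7 and Slc36a1 lower, on all 6 arrays with IBMX/Dex than on the vehicle arrays, while Slc38a4 and Slc1a5 differ more between replicate numbers than between groups.

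Slc7a6 encodes a light chain that exchanges cationic amino acids such as arginine for neutral ones, and its partner is the heavy chain Slc3a2. Its level was 11.22, 10.97 and 11.36 log2 units on CD24 siRNA arrays 1, 2 and 3, 11.30, 11.09 and 11.39 on scrambled siRNA arrays and 10.79, 10.31 and 10.73 on vehicle arrays. Every array with IBMX/Dex lay above every vehicle array. With scrambled siRNA it rose 1.57-fold (0.65 ± 0.16 SE, limma adjusted p = 0.0461). That call was lost when any array other than vehicle 1 was left out, with adjusted p from 0.0585 (either CD24 siRNA 2 or 3 left out) to 0.155 (scrambled 3 left out), while the difference stayed between 0.50 and 0.74. With the replicate block the adjusted p was 0.00158, and 0.00281 to 0.0124 with 1 array left out. With CD24 siRNA the difference was 0.58 ± 0.16 (SE, limma adjusted p = 0.0694, and 0.00306 with the replicate block). With the array labelled CD24 siRNA replicate 3 left out it was 0.49 (adjusted p = 0.198, and 0.0182 with the block).

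The heavy chain and the other light chains did not pass against vehicle. Slc3a2 was one of the 3 brightest members, at 11.91, 12.03 and 11.90 log2 units on CD24 siRNA arrays 1, 2 and 3, 11.91, 11.97 and 11.93 on scrambled siRNA arrays and 12.17, 11.97 and 11.95 on vehicle arrays. Only vehicle 1 stood apart, and the difference was -0.08 (95% interval -0.31 to 0.14) with CD24 siRNA and -0.09 (-0.32 to 0.14) with scrambled siRNA. Slc7a5, the leucine-importing light chain, stood at 11.19, 11.09 and 10.71 with CD24 siRNA, 11.71, 10.94 and 10.77 with scrambled siRNA and 11.50, 10.51 and 10.46 with vehicle. Array 1 was the highest in each group, and the groups overlapped (difference 0.18 with CD24 siRNA and 0.32 with scrambled siRNA, 95% interval of the second -0.41 to 1.05). Slc7a7, the sister of Slc7a6 in arginine exchange, and Slc7a10, a carrier of small neutral amino acids that marks mature fat cells, were dim and differed by 0.10 and 0.22 with CD24 siRNA and by 0.10 and 0.10 with scrambled siRNA. Slc3a1, the heavy chain of the renal cystine exchanger, was close to the filter and differed by at most 0.13 in size. Leaving out the array labelled CD24 siRNA replicate 3 gave CD24 siRNA differences of -0.06 for Slc3a2, 0.32 for Slc7a5 (0.14 with the block), 0.13 for Slc7a7, 0.13 for Slc7a10 and -0.14 for Slc3a1, none of which passed.

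Slc7a11 encodes the light chain that trades glutamate for cystine, the source of cysteine for glutathione. Its level was 7.85, 8.12 and 8.11 log2 units on CD24 siRNA arrays 1, 2 and 3, 8.32, 8.12 and 8.73 on scrambled siRNA arrays and 8.96, 8.18 and 8.36 on vehicle arrays. The CD24 siRNA arrays lay below all others, although CD24 siRNA 2 and scrambled siRNA 2 were nearly equal. The difference from vehicle was -0.47 ± 0.22 (SE, adjusted p = 0.248) with CD24 siRNA and -0.11 ± 0.22 (SE, adjusted p = 0.825) with scrambled siRNA, and neither passed in limma. The CD24 siRNA difference was -0.52 (adjusted p = 0.345) without the array labelled CD24 siRNA replicate 3. Of the cystine, glutathione and Nrf2 list, which also holds Slc7a11, Gclc and Srxn1 rose and Hmox1 and Gclm fell with scrambled siRNA. With CD24 siRNA, Gclc rose and Hmox1 and Gclm fell, out of 17 tested. With the block 2 rose and 3 fell with CD24 siRNA, and 3 rose and 3 fell with scrambled siRNA. Gclc, the catalytic subunit of the enzyme that starts glutathione synthesis, was 2.17 log2 units above vehicle with CD24 siRNA and 2.13 with scrambled siRNA, and its modifier subunit gene Gclm fell by 0.92 and by 1.00. When the array labelled CD24 siRNA replicate 3 was left out, 1 gene of the list passed as higher and none as lower, and with the block 2 and 3, and Gclc differed by 1.96 and Gclm by -0.68.

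The cationic amino acid carriers Slc7a1 and Slc7a2 did not pass. Slc7a1, the general arginine and lysine importer, stood at 9.02, 8.97 and 8.62 log2 units on CD24 siRNA arrays 1, 2 and 3, 9.47, 8.80 and 8.73 on scrambled siRNA arrays and 9.53, 8.65 and 8.95 on vehicle arrays. Its groups overlapped, with differences of -0.17 and -0.05 from vehicle for CD24 siRNA and scrambled siRNA, and -0.05 for CD24 siRNA without the array labelled CD24 siRNA replicate 3. Slc7a2 differed from vehicle by -0.01 with CD24 siRNA (-0.20 without that array, and 0.08 with the block) and by 0.06 with scrambled siRNA, but its mean over the groups differed by 0.92 between replicate numbers, with array 3 highest throughout. In the list of arginine and polyamine genes, Nos2, which makes nitric oxide from arginine, fell by 1.30 with CD24 siRNA and by 1.40 with scrambled siRNA (limma adjusted p = 0.0103 and 0.00722). Srm, spermidine synthase, rose by 0.86 with CD24 siRNA (limma adjusted p = 0.0314) and differed by 0.68 with scrambled siRNA (adjusted p = 0.0656, and 0.0201 with the block). In all 1 of 11 tested genes rose and 1 fell with CD24 siRNA, and 0 rose and 1 fell with scrambled siRNA. With the block 5 rose and 1 fell with CD24 siRNA, and 7 rose and 1 fell with scrambled siRNA, among them Odc1, the first enzyme of polyamine synthesis, and the antizyme inhibitor gene Azin1. The rises are 45.5% and 63.6% of the list, where 10.4% and 11.9% of all genes rose in those fits. Without the array labelled CD24 siRNA replicate 3, 0 rose and 1 fell, and 2 and 1 with the block, and Nos2 differed by -1.31 and Srm by 0.89.

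The sodium-coupled carriers of glutamine and small neutral amino acids gave few differences from vehicle. Slc38a2, the system A carrier that cells use to regain volume and amino acids, was bright, at 11.87, 12.11 and 11.88 log2 units on CD24 siRNA arrays 1, 2 and 3, 11.79, 12.22 and 11.93 on scrambled siRNA arrays and 11.97, 12.14 and 11.86 on vehicle arrays. The groups overlapped fully, and the difference from vehicle was -0.04 (95% interval -0.35 to 0.27) with CD24 siRNA and -0.01 (-0.33 to 0.30) with scrambled siRNA. Slc38a1, another system A carrier, averaged 8.14 ± 0.19 with CD24 siRNA, 8.06 ± 0.24 with scrambled siRNA and 7.79 ± 0.18 with vehicle (SD, n = 3 each) and did not pass. Slc38a4, the third, stood at 10.04, 10.20 and 8.89 with CD24 siRNA, 9.62, 9.99 and 8.95 with scrambled siRNA and 10.19, 10.41 and 9.24 with vehicle. Array 3 was about 1 log2 unit lower than the others in each group, and each scrambled siRNA array was below its same-numbered vehicle array. The difference with scrambled siRNA was -0.43 ± 0.42 (SE, adjusted p = 0.606), and in the fit with the replicate block it passed as a fall (adjusted p = 0.0184, ± 0.11 SE). That call was lost in the blocked fit without scrambled 1, scrambled 2 or vehicle 1. With CD24 siRNA the difference was -0.24 (adjusted p = 0.799, and 0.142 with the block), and without the array labelled CD24 siRNA replicate 3 it was 0.17, or -0.15 with the block. Slc38a6, Slc38a8 and Slc38a10 did not pass. Once that array was left out, the CD24 siRNA differences were -0.0028 for Slc38a2 and 0.38 for Slc38a1, and neither passed.

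Of the Slc1 family, the neutral amino acid exchangers Slc1a5 and Slc1a4 are the best known in growing cells, where Slc1a5 brings in glutamine. Slc1a5 stood at 10.45, 9.96 and 9.23 log2 units on CD24 siRNA arrays 1, 2 and 3, 10.79, 10.02 and 9.36 on scrambled siRNA arrays and 10.52, 9.53 and 9.04 on vehicle arrays. The order of array numbers was the same in each group, and each scrambled siRNA array was above its same-numbered vehicle array. The difference with scrambled siRNA was 0.36 ± 0.47 (SE, adjusted p = 0.715), and with the block it passed as a rise (adjusted p = 0.0413, ± 0.11 SE). Without scrambled 1 it turned to -0.01 in the fit without the block, and in the blocked fit the call was lost unless the array left out was vehicle 1 or CD24 siRNA 1. A second, dimmer probe set of Slc1a5 gave 0.06. With CD24 siRNA the difference was 0.18 (adjusted p = 0.869, and 0.262 with the block). It was 0.51 without the array labelled CD24 siRNA replicate 3 (adjusted p = 0.647), and 0.17 with the block (adjusted p = 0.457). Slc1a4, the alanine and serine exchanger, stood at 9.05, 8.63 and 8.37 with CD24 siRNA, 9.25, 8.50 and 8.41 with scrambled siRNA and 9.11, 8.26 and 8.72 with vehicle, with fully overlapping groups. Its difference from vehicle with CD24 siRNA was -0.01, and 0.14 without the array labelled CD24 siRNA replicate 3.

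Slc1a7, a glutamate transporter best known from the retina, was dim. It stood at 6.76, 6.57 and 6.73 log2 units on CD24 siRNA arrays 1, 2 and 3, 6.75, 6.60 and 6.60 on scrambled siRNA arrays and 6.60, 6.23 and 6.24 on vehicle arrays, close to the filter. Vehicle 1 overlapped the other groups, and vehicle 2 and 3 lay below them. With CD24 siRNA the difference was 0.33 ± 0.13 (SE, limma adjusted p = 0.165, and 0.0401 with the block). With the block the call held when vehicle 1 was left out and was lost when any of the other 8 arrays was, with 0.27 and an adjusted p of 0.163 without the array labelled CD24 siRNA replicate 3. With scrambled siRNA the difference was 0.29 (adjusted p = 0.212, and 0.0595 with the block). The glutamate carriers Slc1a3 and Slc1a6 did not pass.

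The 14 genes below the filter were Slc1a1, Slc1a2, Slc7a3, Slc7a4, Slc7a8, Slc7a9, Slc7a12, Slc7a13, Slc7a14, Slc7a15, Slc36a3, Slc38a3, Slc38a5 and Slc38a11. Their values lay between 4.06 and 6.52 log2 units over all arrays. Among them are the glutamate carriers Slc1a1 and Slc1a2, the renal light chain Slc7a9, the light chain Slc7a8 and the system N glutamine carriers Slc38a3 and Slc38a5. Just inside the filter were Slc3a1 and Slc7a7, where the third highest value was 6.64 and 6.67, and just outside it were Slc7a15 and Slc7a8, with 6.46 and 6.25. A dim probe set cannot show by its level alone whether the gene was transcribed. Over the 28 tested genes, those that passed in neither fit differed from vehicle by -0.47 to 0.34 log2 units with CD24 siRNA (23 genes) and by -0.23 to 0.32 with scrambled siRNA (22 genes). Leaving out the array labelled CD24 siRNA replicate 3, the 24 that passed in neither fit differed by -0.52 to 0.51 with CD24 siRNA.

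The third comparison, CD24 siRNA against scrambled siRNA with IBMX/Dex in both, asks whether lowering CD24 changes the response. Cd24a itself, through its brighter probe set, did not pass in it (-0.90 log2 units, limma unadjusted p = 0.0638, and 0.0118 with the block). It also did not pass without the array labelled CD24 siRNA replicate 3 (-1.42). Since the target was not called, a lack of calls cannot show that the carriers do not respond. No transporter gene passed (0 of 28, limma adjusted p = 1 for each), where 0% of all tested genes passed, with and without the replicate block. At an unadjusted p under 0.05 the count was also 0 in both fits, beside 0.238% of all genes without the block and 1.73% with it. Differences ran from -0.36 for Slc7a11 (95% interval -0.86 to 0.13) to 0.19 for Slc38a4 (-0.76 to 1.14). The intervals of 26 of the 28 genes lay within 1 log2 unit of 0, and they reached 0.22 to 1.06 to either side (median 0.35). With the block they reached 0.20 to 0.50 (median 0.25). Both sets of intervals include the array labelled CD24 siRNA replicate 3, where Cd24a was hardly lower. They therefore do not bound the effect on the arrays where Cd24a was clearly lower. Slc7a11 was lower and Slc43a1 higher on all CD24 siRNA arrays than on all scrambled siRNA arrays, Slc7a11 by only -0.0061 at number 2. How many of all tested genes separate in this way was not counted, so this is not read as an effect of the siRNA. Slc43a1 stood at 7.42, 7.26 and 7.28 with CD24 siRNA and at 7.22, 7.09 and 7.21 with scrambled siRNA, a difference of 0.15 (-0.11 to 0.40), and of 0.17 without the array labelled CD24 siRNA replicate 3. With the array labelled CD24 siRNA replicate 3 left out the differences ran from -0.41 for Slc7a11 to 0.60 for Slc38a4 (-0.36 and 0.28 with the block). Again no gene passed, and at an unadjusted p under 0.05 the count was 0 without the block and 1 with it, Slc38a4 at 0.28, beside 0.428% and 2.09% of all genes.

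**Figure D3:**
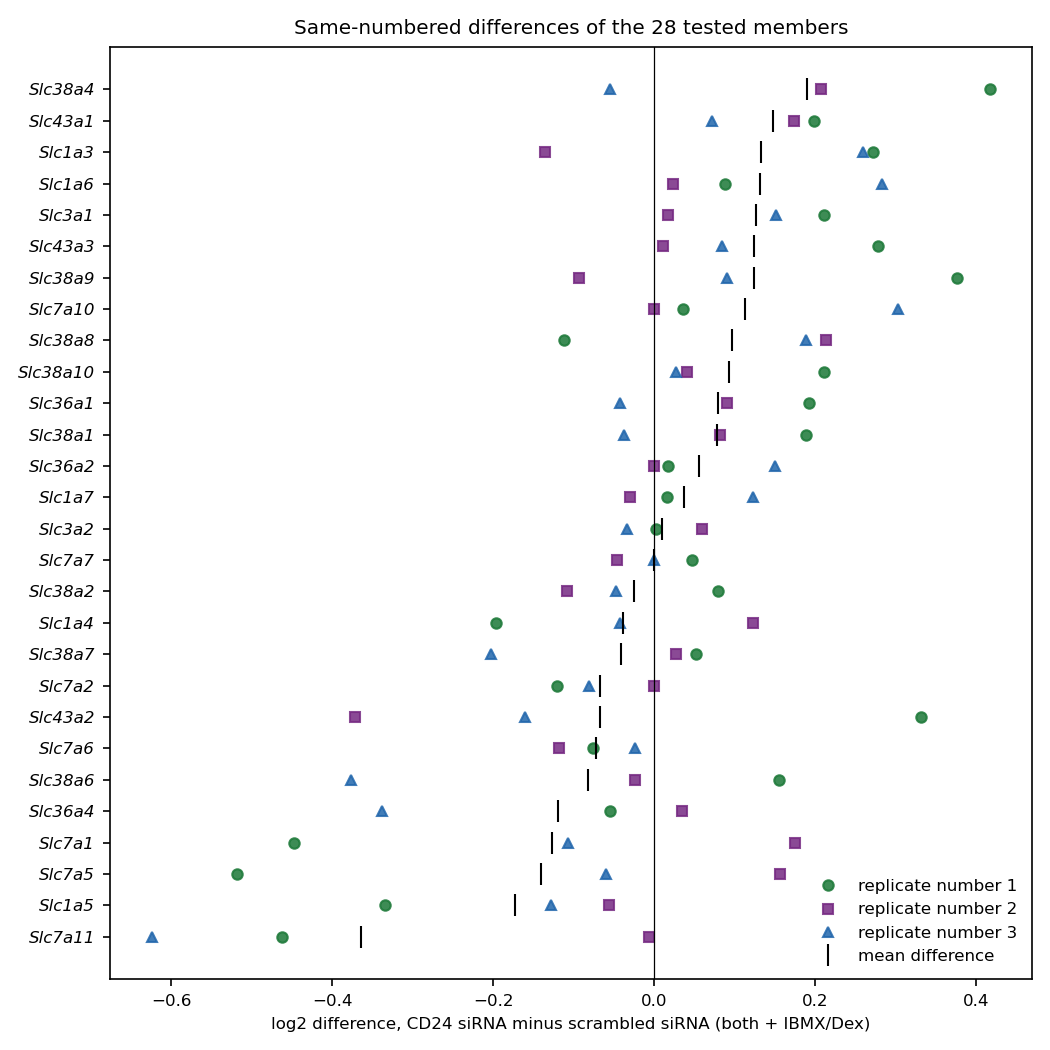
Log2 difference of CD24 siRNA minus scrambled siRNA, both with IBMX/Dex, for each replicate number (symbols) and on average (bars) in the 28 tested transporter genes. Most means lie within 0.2 of 0, Slc7a11 is lowest at -0.36, and none passed.

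Several of these genes differed more between replicate numbers than between groups. The means over the 3 groups spanned 1.38 log2 units between numbers for Slc1a5, 1.17 for Slc38a4, 0.92 for Slc7a2, 0.82 for Slc7a5, 0.79 for Slc1a3, 0.69 for Slc36a4, 0.68 for Slc1a4 and 0.57 for Slc7a1. Slc1a5, Slc7a5, Slc1a4 and Slc7a1, 4 importers of neutral or cationic amino acids, were highest on array 1 in each group. So were Slc36a1, Slc1a7 and Slc7a7. In all, 7 of the 28 genes (25%) were highest on array 1 in each group, beside 20% of all tested genes. The number range exceeded the group range in 12 of the 28 genes (42.9%), beside 55.4% of all tested genes. Among the amino acid response and ATF4 genes 11 of 24 (45.8%) were highest on array 1 in each group. Atf4 itself stood at 9.18, 8.83 and 8.48 with CD24 siRNA, 9.58, 8.76 and 8.52 with scrambled siRNA and 9.14, 8.73 and 8.57 with vehicle, so array 1 was highest and array 3 lowest throughout. The ATF4 target Asns and the carrier gene Slc38a2 were instead highest on array 2 in each group. These are descriptions of 3 numbers, and the part of culture, RNA or hybridisation in them was not tested.

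**Figure D4:**
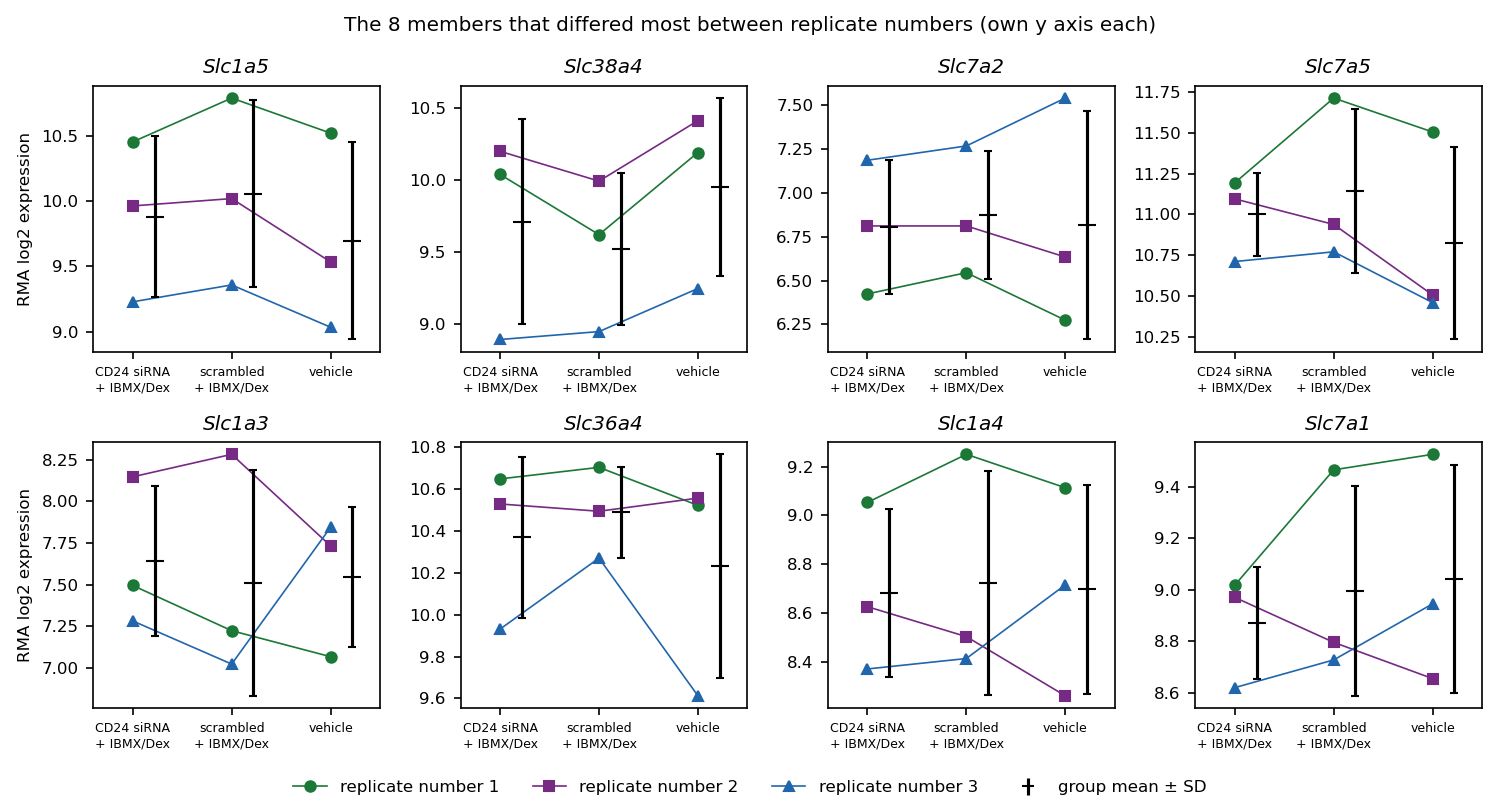
RMA log2 expression on each array of the 8 transporter genes with the widest spread between replicate numbers, by group (CD24 siRNA + IBMX/Dex, scrambled siRNA + IBMX/Dex, vehicle). Lines join arrays of 1 number, and black bars are the group mean ± SD of 3 arrays. Number 1 is highest in each group for Slc1a5, Slc7a5, Slc1a4 and Slc7a1, and number 3 is lowest in each group for Slc1a5 and Slc38a4.

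The genes around the carriers were read from 8 lists. Their counts stand beside shares of all tested genes that were given above, 2.92% to 3.73% in 1 direction without the block and 10.4% to 12.1% with it, and 1.25% to 1.29% and 6.68% to 7.28% when the array labelled CD24 siRNA replicate 3 was left out. Glutamine and glutamate metabolism held the largest changes. Glul, glutamine synthetase, stood at 11.91, 11.80 and 12.14 log2 units on CD24 siRNA arrays 1, 2 and 3, 12.04, 11.94 and 12.12 on scrambled siRNA arrays and 9.66, 9.73 and 9.77 on vehicle arrays. The gap between the vehicle arrays and all others was over 2 log2 units (2.23 ± 0.11 SE with CD24 siRNA, limma adjusted p = 3.18e-05, and 2.32 ± 0.11 SE with scrambled siRNA, limma adjusted p = 3.02e-05). Gfpt2 and Gfpt1, which use glutamine to start the hexosamine pathway, rose by 2.37 and 0.75 with CD24 siRNA and by 2.48 and 0.81 with scrambled siRNA. Ppat, which uses glutamine to start purine synthesis, rose by 1.06 with CD24 siRNA and 1.08 with scrambled siRNA. Of 10 tested genes 5 rose with CD24 siRNA and 4 with scrambled siRNA, and 0 fell. The fifth was Cad, which starts pyrimidine synthesis, with 0.70 for CD24 siRNA (limma adjusted p = 0.0235) and 0.56 for scrambled siRNA (adjusted p = 0.0504). With the replicate block 6 rose in each comparison. When the array labelled CD24 siRNA replicate 3 was left out the count was 5 with and without the block, and Glul, Gfpt2, Gfpt1, Ppat and Cad differed by 2.14, 2.12, 0.70, 1.20 and 0.78.

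In the amino acid response list 0 of 24 genes rose and 1 fell in each comparison. That gene was Eif2ak4, which encodes Gcn2 itself, and it fell by 0.89 with CD24 siRNA (limma adjusted p = 0.00800) and by 0.94 with scrambled siRNA (limma adjusted p = 0.00623). With the block 2 rose and 4 fell in each, adding Ddit4 and Cebpb as higher and Chac1, Trib3 and Ddit3 as lower. That is 8.33% higher and 16.7% lower, near the shares of all genes in that fit. Asns, asparagine synthetase and a standard ATF4 target, averaged 11.56 ± 0.27 with CD24 siRNA, 11.47 ± 0.08 with scrambled siRNA and 11.64 ± 0.12 with vehicle (SD, n = 3 each) and did not pass. Without the array labelled CD24 siRNA replicate 3, 0 rose and 1 fell, and 2 and 3 with the block, and Eif2ak4 differed by -0.82 and Asns by 0.04.

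In the list of amino acid sensing and mTORC1 genes, 1 of 32 rose and 3 fell in each comparison. Mtor, the kinase of the complex, rose by 0.61 with CD24 siRNA and by 0.67 with scrambled siRNA. Tsc1, part of the brake on the complex, fell by 0.67 and by 0.68, and Lamtor3, part of its lysosomal anchor, fell by 0.50 and by 0.55. The third fall was that of Rragc, one of the Rag GTPases, with CD24 siRNA (-0.50) and that of Wdr59, part of the GATOR complex, with scrambled siRNA (-0.63). With the block 1 rose and 9 fell with CD24 siRNA, and 1 rose and 8 fell with scrambled siRNA. The falls are 28.1% and 25% of the list, where 12.1% and 11.4% of all genes fell in those fits. With the array labelled CD24 siRNA replicate 3 left out, 0 rose and 1 fell, and 1 and 5 with the block, and Mtor, Tsc1, Lamtor3 and Rragc differed by 0.55, -0.57, -0.40 and -0.45.

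Among 21 tested amino acid carriers of other families, 2 rose and 1 fell in each comparison, and 3 rose and 2 fell with the block. Slc6a6, the taurine importer, rose by 0.82 with CD24 siRNA and 0.85 with scrambled siRNA. Slc6a17, a vesicular neutral amino acid carrier, rose by 0.78 with CD24 siRNA and 0.79 with scrambled siRNA, and the gene that fell was Ctns. When the array labelled CD24 siRNA replicate 3 was left out, 2 rose and 0 fell, and 2 and 1 with the block, and Slc6a6 and Slc6a17 differed by 0.82 and 0.89. Of 9 regulators of transporter trafficking 1 rose and 1 fell in each comparison. Arrdc3, an arrestin-like adaptor, rose by 1.41 with CD24 siRNA and 1.45 with scrambled siRNA, and the kinase gene Sgk3 fell by 0.70 and by 0.87. With the block 2 rose and 3 fell with CD24 siRNA, and 2 rose and 2 fell with scrambled siRNA. Without the array labelled CD24 siRNA replicate 3, 1 rose and 1 fell, and 2 and 1 with the block, and Arrdc3 and Sgk3 differed by 1.45 and -0.73. Among 17 genes of branched-chain amino acid breakdown 1 rose in each comparison, the transaminase gene Bcat1, by 0.89 with CD24 siRNA and 0.79 with scrambled siRNA, and 0 fell. With the block 3 rose in each, and the count was 1, or 2 with the block, when the array labelled CD24 siRNA replicate 3 was left out, where Bcat1 differed by 0.96. In CD24 siRNA against scrambled siRNA, no gene of any of the 8 lists passed in either fit.

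**Figure D5:**
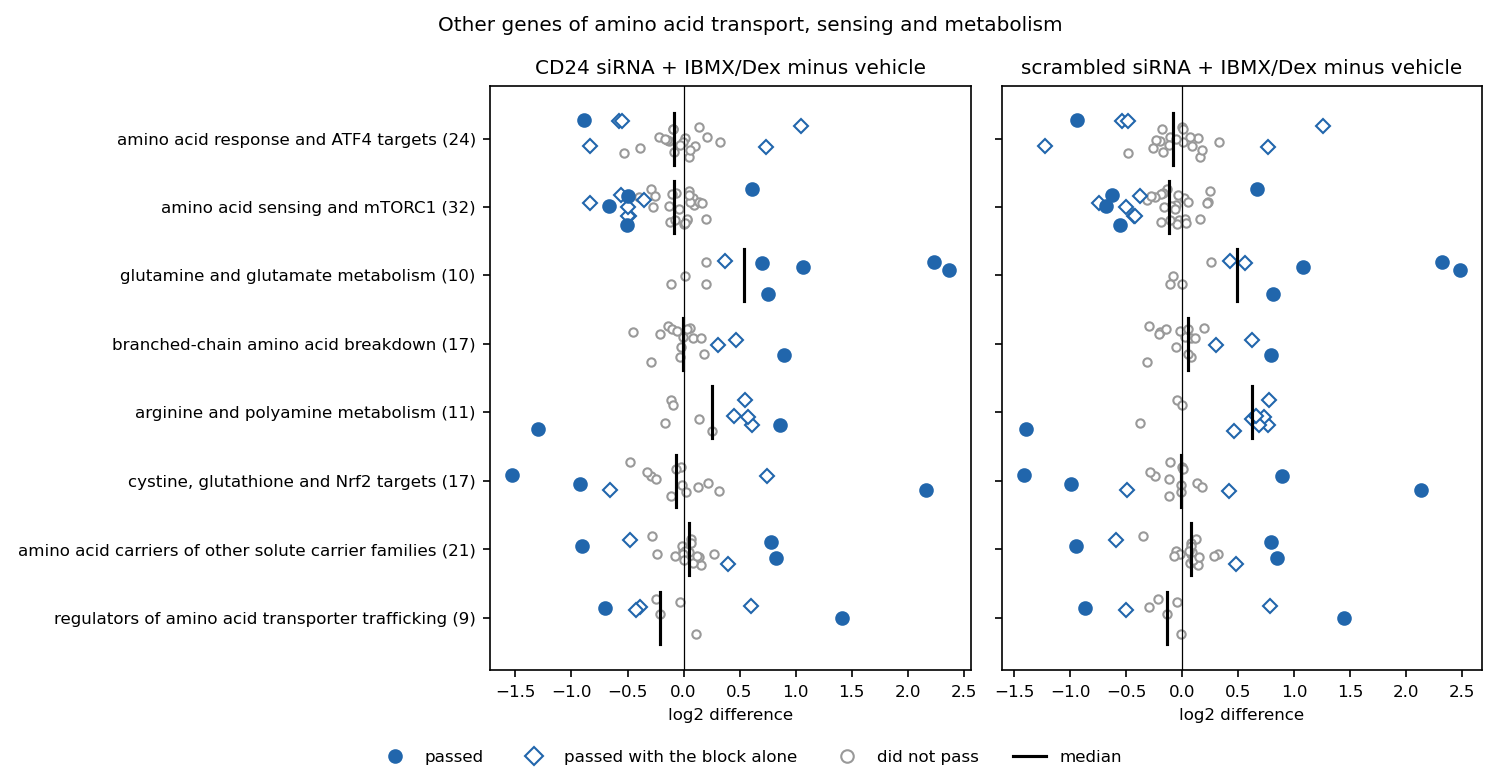
Log2 difference from vehicle of each tested gene in 8 lists around amino acid transport, for CD24 siRNA + IBMX/Dex (left) and scrambled siRNA + IBMX/Dex (right), with the number of tested genes in brackets. Filled points passed an adjusted p of 0.05, diamonds passed with the replicate block alone, grey circles did not pass, and bars mark list medians. Glutamine and glutamate metabolism has the highest list median with CD24 siRNA (0.53), and no gene of that list passed as lower. With scrambled siRNA the highest list median is that of arginine and polyamine metabolism (0.62, beside 0.49 for glutamine and glutamate metabolism).

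Markers of the cell type moved as well. Of 11 tested pre-adipocyte fibroblast markers, Pdgfrb and Pdgfra fell, by 1.61 and 1.10 with CD24 siRNA and by 1.66 and 1.04 with scrambled siRNA, and the other 9 did not pass without the block. With the block 1 rose and 4 fell with CD24 siRNA, and 0 rose and 5 fell with scrambled siRNA. With the array labelled CD24 siRNA replicate 3 left out, 1 fell, or 4 with the block, and Pdgfrb and Pdgfra differed by -1.49 and -1.15. The summed log2 level of that list was 125.5 to 126.8 on CD24 siRNA arrays, 124.8 to 126.8 on scrambled siRNA arrays and 129.6 to 130.3 on vehicle arrays. Of 6 lists of other cell types only 1 gene passed without the block, the muscle marker Des, which fell by 0.71 with CD24 siRNA and 0.70 with scrambled siRNA (-0.59 with CD24 siRNA, adjusted p = 0.0676 in limma, without the array labelled CD24 siRNA replicate 3), and Myod1 lay close to the filter. The summed level of the 6 muscle markers was 40.0 to 41.2 on CD24 siRNA arrays, 39.9 to 41.7 on scrambled siRNA arrays and 40.2 to 41.9 on vehicle arrays. With the block Lyz2 fell and Cd14 rose with scrambled siRNA, and Tubb3 rose with CD24 siRNA. In bulk samples fewer cells of a type and less RNA per cell cannot be told apart, and the part of cell state in the transporter values was not tested.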

How the data were processed

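The deposited log2 values of 41345 probe sets on 9 arrays were made by the authors with RMA (background correction, normalization across arrays, 1 value per probe set) and the oligo package, per the submitters' processing notes; their versions are not given here. RMA makes the arrays' distributions nearly alike, compresses differences of dim probe sets, and can give equal values on several arrays (19 of the 42 genes had such ties). Levels of different probe sets are not comparable. The values were used as deposited.

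Gene names came from the annotation of the platform, for 23521 probe sets with 1 symbol. Probe sets with several symbols (1814) or unnamed here (16010) were left out, and the brightest probe set of each gene was used. Of the 42 genes 4 had a second probe set. The fit used limma 3.58.1 in R 4.3.3 (lmFit and eBayes) on all 9 arrays with 1 mean per group, two-sided, adjusted by Benjamini-Hochberg over 12630 genes, with a threshold of 0.05. A rise or fall means a gene past that threshold. The fits were run on simulated arrays with independent noise. These held no effect of the replicate number, so they cannot show how either fit behaves where same-numbered arrays deviate together.

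Sample titles gave the groups and the replicate numbers. Deviations from group means correlated at 0.377 to 0.732 within a number and at most 0.116 between numbers. The main fit had no block, so its p-values, standard errors and intervals do not take this pairing into account. The number as a fixed block was an alternative. Further alternatives were a filter at the 75th percentile (8.07) or none, quantile normalization or median centring of the arrays, averaged or separate probe sets, an intensity trend with robust fit, the 6 compared arrays alone, and each array left out in turn. The list counts without 1 array were added after its Cd24a level was seen.

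The transporter genes and the lists were chosen with earlier results of these data known. Values per array are given for members past the threshold in any comparison with or without the block, and for partner chains and well known carriers named by role. From the other lists up to 4 genes with the smallest p are named, and more where a list held few calls. Array values of Atf4, Asns, the lysosomal carriers and Tfe3 were chosen after the values were seen.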

Additional observations from a re-analysis of the deposited data

How the results depend on the processing

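Slc43a3 passed in both comparisons with vehicle under every alternative run. Of the 28 genes tested, 4 passed with scrambled siRNA against vehicle, and 2 when only the 6 arrays compared were fitted. Leaving out 1 array gave 1 to 3, and 1 without scrambled replicate 2, scrambled replicate 3 or vehicle replicate 3. Calls over all genes in those fits were 472, 313 and 485, beside 876 with all arrays. With CD24 siRNA against vehicle 3 passed. Leaving out 1 array gave 1 to 3. The count was 1 without vehicle replicate 1, vehicle replicate 3, CD24 siRNA replicate 2 or the array labelled CD24 siRNA replicate 3. Calls over all genes in those fits were 772, 458, 369 and 321, beside 840 with all arrays. With the replicate block the counts were 6 for scrambled siRNA and 5 for CD24 siRNA, and 4 to 6 in each with 1 array left out. CD24 siRNA against scrambled siRNA gave 0 in every fit. Over all genes the block moved the calls to 2831 with CD24 siRNA, against 840 without it, and to 2942 with scrambled siRNA, against 876 without it.

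With 1 array left out of the fit without the block, the difference of Slc1a5 with scrambled siRNA ran from -0.0079 without scrambled replicate 1 (adjusted p = 0.996) to 0.77 without vehicle replicate 1. No other of the differences that passed in either fit turned its sign. Slc38a4 with CD24 siRNA, which passed in neither fit, turned to 0.17 without the array labelled CD24 siRNA replicate 3, but was -0.15 with the block. Array 3 was low for this gene in each group, and the fit without the block does not balance the numbers. Slc7a6 with scrambled siRNA had an adjusted p of 0.0691 with no filter, 0.0653 after median centring and 0.0915 in the 6 arrays compared. Slc36a1 with CD24 siRNA had 0.0527, 0.0618 and 0.0814 under the same settings, and Slc38a7 with scrambled siRNA had 0.0592 in the 6 arrays compared. With no filter more genes share the adjustment, and with 6 arrays fewer samples estimate the spread; for the others the cause was not tested. Signal near the filter limits Slc1a7, Slc3a1, Slc7a7, Slc36a2 and Slc38a8. The block changed no other call among the 28 genes than those given.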
